A study of Arabidopsis thaliana with 8 samples.

Results

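Transcript ratios of 4 Arabidopsis genes of DNA repair, recombination and methylation are described here. They are BIN4 (AT5G24630), GMI1 (AT5G24280), AHP2 (AT1G13330) and FDM4 (AT1G13790), each measured by 1 probe among the 37685 probes of the array, of which 7628 could be assigned to 7418 genes. The genes were chosen for their known roles and because their ratios in these arrays stood away from 0, so their values at both ages are given as a description, with no test. The names of all 4 probes come from the study's own lists of changed genes and not from the array annotation.

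Plants keep their genome intact with enzymes that untangle DNA, proteins that sense and mend breaks, and pathways that silence repeated sequences. BIN4 is a component of the plant topoisomerase VI complex, which passes one DNA duplex through another and is needed for endoreduplication, the repeated copying of the genome without division. GMI1 is a protein with an SMC hinge domain that is induced by DNA double-strand breaks through the kinase ATM and acts in somatic homologous recombination. AHP2 is the Arabidopsis homologue of Hop2, which works with MND1 in the pairing of homologous chromosomes in meiosis, and FDM4 belongs to the FDM/IDN2 family, whose members act in RNA-directed DNA methylation.

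The study asked which genes change in the stem when SND2, a NAC transcription factor of fibre secondary wall formation, is overexpressed. SND2-OV(A) was set against wild type on 2-colour Agilent arrays at 8 weeks and, in a separate experiment, at 4 weeks. SND2-OV(A) is transgenic line A, a homozygous T4 line in the Col-0 background that carries the SND2 coding sequence in the overexpression vector pMDC32, and the wild type is Col-0. Each age had 3 biological replicates, for which 6 plants of a genotype were pooled at 8 weeks and 10 at 4 weeks. All RNA came from inflorescence stems. Only this 1 line was put on arrays, so that effects of SND2 and of the insertion site cannot be told apart. The labels describe 50 µg/ml hygromycin for the transgenic seedlings at both ages, whereas the methods give selection for the 8-week experiment and none for the 4-week one. Age thus cannot be told apart from experiment, pool size, selection and any difference in the part of the stem sampled.

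Each age had 4 arrays, 2 of them a dye swap of replicate 1. SND2-OV(A) was labelled with Cy3 in replicate 2 and with Cy5 in replicate 3 at both ages. Each value is the log2 of the level in SND2-OV(A) over that in wild type, so that 1 unit is a doubling, and the 2 arrays of replicate 1 were averaged to leave n = 3. The direction of the ratios was taken from SND2, so its sign is no check of the labels. SND2 was above 0 in both dye orientations, with array ratios of 5.23 to 7.60 at 8 weeks and 2.75 to 3.37 at 4 weeks. The study describes this transgene's signal as saturated at 8 weeks, so the ratios at that age may be too low. Array medians lay between -0.11 and 0.03 at 8 weeks and between -0.07 and 0.06 at 4 weeks. The tails were uneven, most of all at 4 weeks. The array of replicate 3 there had 2023 probes over 2-fold higher in SND2-OV(A) and 35 over 2-fold lower. The Cy3 array of replicate 1 at 4 weeks had 92 over 2-fold higher and 2759 over 2-fold lower. The array of replicate 1 at 8 weeks with SND2-OV(A) in Cy5 stood apart, with an SD over probes of 1.01 against 0.308 to 0.347 on the others of that age. Over all probes the arrays correlated weakly, from -0.114 to 0.283 at 8 weeks and from -0.218 to 0.134 at 4 weeks. The dye-swapped pair of replicate 1, from the same RNA, correlated at 0.0879 at 8 weeks and 0.0623 at 4 weeks. The files hold ratios and no intensities, so neither the level of a gene nor its signal over background is known. Fewer cells of a type and less RNA per cell cannot be told apart in pooled stem tissue.

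BIN4 was higher in SND2-OV(A) than in wild type on all 8 arrays. At 8 weeks its log2 ratios were 1.72 and 1.13 on the arrays of replicate 1 with the line in Cy3 and in Cy5, 1.51 in replicate 2 and 1.12 in replicate 3. At 4 weeks they were 0.87 and 0.68 on the pair of replicate 1, 0.57 in replicate 2 and 0.67 in replicate 3. Every value at 8 weeks lay above every value at 4 weeks, and at 8 weeks the arrays with the line in Cy3 lay above those with the line in Cy5. The mean ratio was 1.35 ± 0.20 at 8 weeks, or 2.56-fold, and 0.67 ± 0.10 at 4 weeks, or 1.59-fold (SD, n = 3 each). Of all probes, 8 had a higher mean at 8 weeks and 186 at 4 weeks. On single arrays at 4 weeks 148 to 3469 probes were higher than BIN4, the most on replicate 3. The dye-swapped arrays at 8 weeks differed by 0.59 for BIN4, against a median difference of 0.25 over all probes, and the part of the dye in this spread was not tested.

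GMI1 was likewise higher in SND2-OV(A) on every array, and it had nearly the same ratio at both ages. Its log2 ratios at 8 weeks were 1.11 in Cy3 and 1.16 in Cy5 for replicate 1, 1.16 for replicate 2 and 0.82 for replicate 3. Those at 4 weeks were 0.89 in Cy3 and 1.00 in Cy5 for replicate 1, 0.91 for replicate 2 and 0.94 for replicate 3. Replicate 3 was the lowest at 8 weeks and fell below all the replicates at 4 weeks, so the ages overlapped. The mean was 1.04 ± 0.19 at 8 weeks (2.05-fold) and 0.93 ± 0.02 at 4 weeks (1.91-fold). Only 25 probes had a higher mean at 8 weeks and 19 at 4 weeks, and only 0.995% of probes had a smaller SD than GMI1 at 4 weeks. On single arrays at 4 weeks 76 to 2192 probes were higher than GMI1, the most on replicate 3.

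AHP2 was the member that was lower in SND2-OV(A). At 8 weeks its log2 ratios were -0.62 and -0.80 for replicate 1 with the line in Cy3 and in Cy5, -0.55 for replicate 2 and -0.68 for replicate 3. At 4 weeks replicate 1 gave -0.27 in either dye, replicate 2 gave -0.48 and replicate 3 gave -0.35. No array at either age was above 0, and the ages did not overlap, with the ratios farther from 0 at 8 weeks. The mean was -0.65 ± 0.08 at 8 weeks, a wild type level 1.57 times that of the line, and -0.37 ± 0.10 at 4 weeks, a wild type level 1.29 times that of the line. Lower means than that of AHP2 were not rare, with 828 probes below it at 8 weeks and 1859 at 4 weeks. On single arrays at 4 weeks 1287 to 10354 probes were lower than AHP2, the most on the Cy3 array of replicate 1.

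FDM4 was higher in SND2-OV(A) on all 8 arrays, and its replicates at 8 weeks were the closest together of the 4 genes. Its log2 ratios at 8 weeks were 1.14 in Cy3 and 1.11 in Cy5 for replicate 1, 1.14 for replicate 2 and 1.18 for replicate 3. At 4 weeks they were 0.70 and 0.49 for the pair of replicate 1, 0.35 for replicate 2 and 0.42 for replicate 3. All values at 8 weeks exceeded all those at 4 weeks. The mean was 1.15 ± 0.03 at 8 weeks (2.22-fold) and 0.46 ± 0.12 at 4 weeks (1.37-fold). At 8 weeks 1.75% of probes had a smaller SD, and 16 probes had a higher mean. At 4 weeks 850 probes had a higher mean than FDM4, and on single arrays 316 to 5271 probes were higher, the most on replicate 3.

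**Figure D1:**
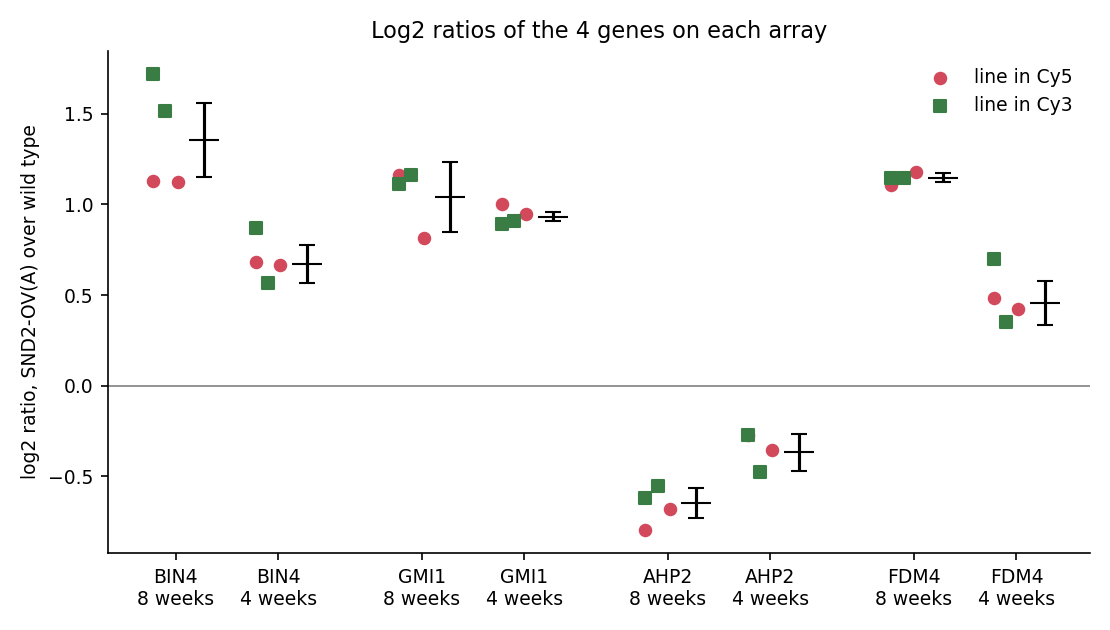
Log2 ratio of SND2-OV(A) over wild type (y axis) of BIN4, GMI1, AHP2 and FDM4 at 8 weeks and at 4 weeks, 1 point per array in replicate order with its dye, and the mean ± SD over 3 replicates beside them (the pair of replicate 1 for AHP2 at 4 weeks coincides). BIN4, GMI1 and FDM4 lie above 0 and AHP2 below 0 on every array, and only GMI1 has overlapping ages.

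The order of the 4 genes differed between the ages. At 8 weeks BIN4 had the highest mean ratio, followed by FDM4, GMI1 and AHP2, and the replicates of the first 3 overlapped pairwise. Within replicates BIN4 exceeded GMI1 in 3 of 3, by 0.31 ± 0.03, whereas BIN4 exceeded FDM4 in 2 of 3. In replicate 1 the order of BIN4 and GMI1 came from the Cy3 array (1.72 against 1.11). The Cy5 array of the same RNA gave 1.13 for BIN4 and 1.16 for GMI1, the opposite order. At 4 weeks GMI1 came first, above BIN4 in 3 of 3 replicates and without overlap (BIN4 minus GMI1 was -0.26 ± 0.08). BIN4 and FDM4 overlapped at 4 weeks, although BIN4 was higher within each replicate, by 0.21 ± 0.03. AHP2 lay apart from the other genes at both ages.

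No probe passed limma's test at an adjusted p under 0.05 and over 1.5-fold at either age (0% at 8 weeks and 0% at 4 weeks), the transgene included. The study, also with limma and with these thresholds at 8 weeks, reported changed genes at both ages. SND2 was among those it reported at 8 weeks. Its normalization is given only by citation, and why the fits differ was not tested. The smallest adjusted p was 0.44 at 8 weeks and 0.372 at 4 weeks. At an unadjusted p under 0.05, limma gave 1319 probes at 8 weeks (3.5%) and 374 at 4 weeks (0.992%), where 1884 would be reached if no probe differed. By size and sign alone, over 1.5-fold with one sign in all 3 replicates, 3 of the 4 genes (BIN4, GMI1 and FDM4) were higher at 8 weeks, beside 0.279% of all probes. AHP2 was lower by the same measure, beside 1.72%. At 4 weeks BIN4 and GMI1 were higher, beside 0.353% of all probes. FDM4 and AHP2 stayed under 1.5-fold there, and 0.541% of probes were lower. The genes were chosen on these ratios, so nothing is read from the counts. The member just inside 1.5-fold was AHP2 at 8 weeks (-0.65) and the one just outside was FDM4 at 4 weeks (0.46), where the limit is 0.585.

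Between the ages the ratio of BIN4 differed by 0.68 ± 0.13, that of FDM4 by 0.69 ± 0.07 and that of AHP2 by -0.28 ± 0.08 (8 minus 4 weeks, SE). For GMI1 the difference was 0.11 ± 0.11, no larger than its error, and leaving out 1 replicate gave 0.06 without replicate 1, 0.03 without replicate 2 and 0.22 without replicate 3. All 3 replicates at 8 weeks lay above all 3 at 4 weeks for BIN4 and FDM4, as they did for 2.13% of all probes, and below them for AHP2, as for 4.36%. Larger positive differences than those of BIN4 and FDM4 were found for 404 and 384 probes. The ratio of SND2 was also larger at 8 weeks, by 3.66 ± 0.76, which its saturated signal at that age may make too low. In limma's fit of the 6 ratios 0 probes (0%) passed for the difference between the ages. At an unadjusted p under 0.05 it gave 603, fewer than the 1884 that would be reached if no probe differed.

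**Figure D2:**
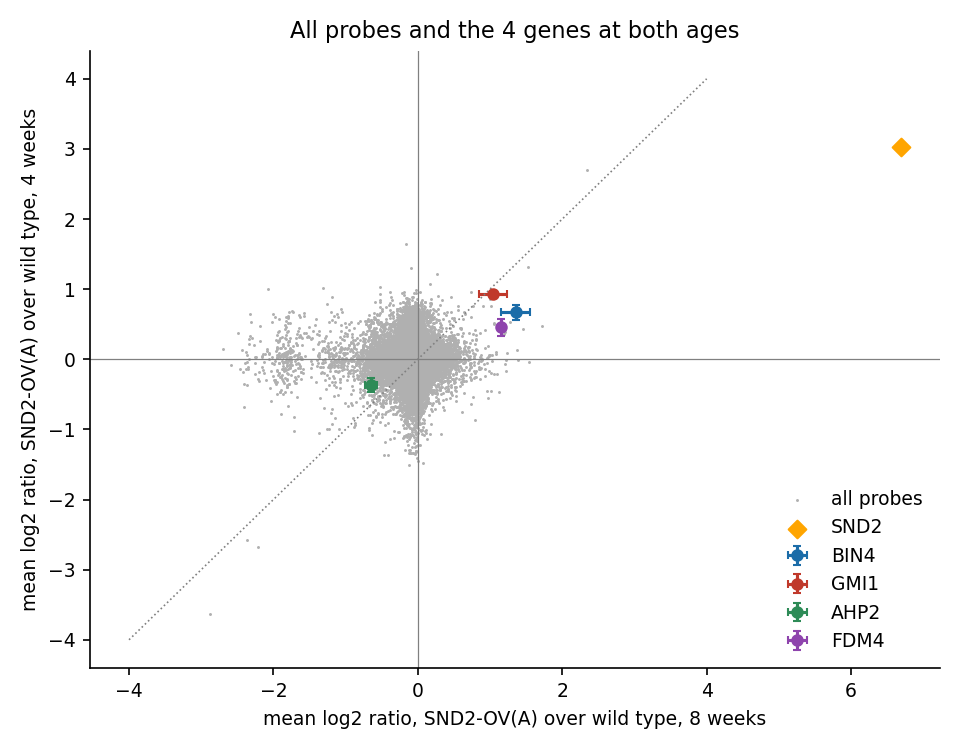
Mean log2 ratio of SND2-OV(A) over wild type at 8 weeks (x axis) and at 4 weeks (y axis) for every probe (grey), the 4 genes (SD bars, n = 3) and SND2 (diamond, no bars), with a dotted line of equal ratios. GMI1 lies near the line at 1.04 and 0.93, while BIN4 and FDM4 lie to its right and AHP2 lies above it.

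Few probes kept one sign and a size like that of the 4 genes on every array. The genes were chosen on these ratios, so the counts that follow describe the choice and are no separate result. Over the 8 arrays 170 probes (0.451%) stayed above 0, among them BIN4, GMI1 and FDM4, and 191 (0.507%) stayed below 0, among them AHP2. Only 4 probes had every array at or above the lowest value of GMI1, itself included, and 7 and 9 did so for BIN4 and FDM4. The 9 were BIN4, GMI1, FDM4, SND2, NAC103, PLE, AT5G11410, AT1G20120 and AT3G25597. For AHP2, 10 probes had every array at or below its highest value. The range over the 8 arrays was 0.35 for GMI1, which 4.71% of probes undercut, 0.53 for AHP2, 0.83 for FDM4 and 1.15 for BIN4, against a median of 0.75 over all probes.

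**Figure D3:**
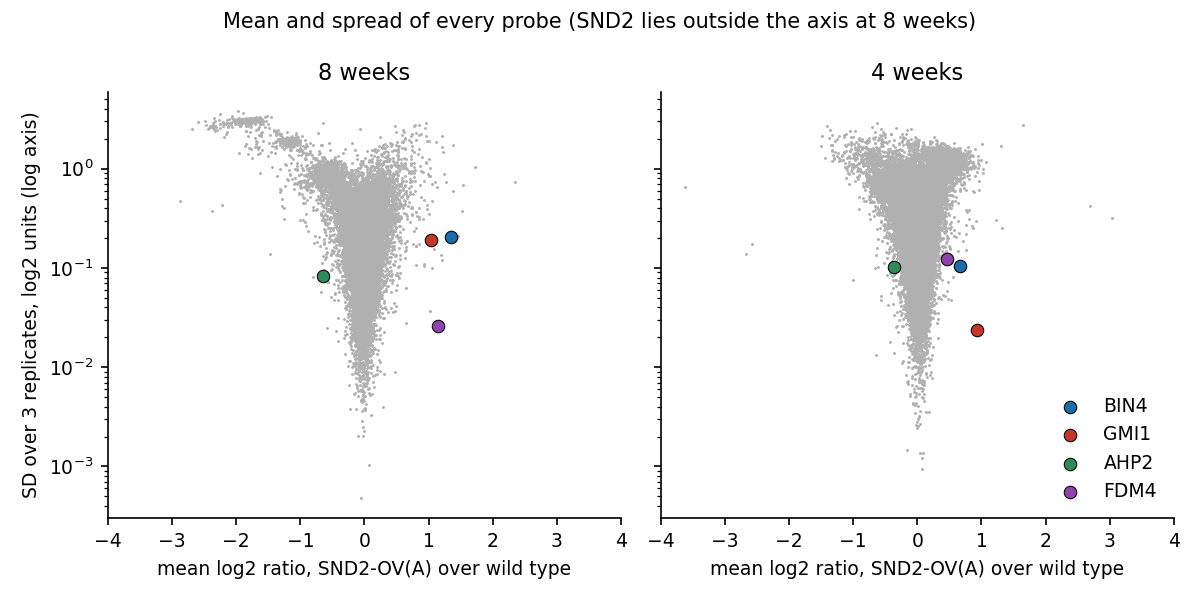
Mean log2 ratio (x axis) and SD over 3 replicates in log2 units (y axis, log scale) of every probe (grey) and of the 4 genes, at 8 weeks and at 4 weeks; SND2 is off the axis at 8 weeks and an unmarked grey point at 4 weeks. FDM4 at 8 weeks (SD 0.03) and GMI1 at 4 weeks (SD 0.02) have smaller SDs than most probes.

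The genes most alike were found by the root mean square difference over the 6 replicate ratios, among probes with a name. Probes named only through the study's lists were among these because the study had called them. FDM4 was nearest to PLE, a microtubule-associated protein of cytokinesis, at a difference of 0.11. PLE averaged 1.06 ± 0.10 at 8 weeks and 0.52 ± 0.05 at 4 weeks. MEE66 came next, at 0.17, and then BIN4, at 0.25. BIN4 was nearest to AT2G33793 (0.22), which averaged 1.46 ± 0.21 at 8 weeks and 0.43 ± 0.11 at 4 weeks. FDM4 and PLE followed, at 0.25 and 0.26. BIN4 and FDM4 stood among each other's 3 nearest named probes. The 4 genes were chosen on their ratios and named through the study's lists, so nothing is read from their closeness to each other. GMI1 was nearest to NAC103 (0.23), a NAC factor known from the unfolded protein response, which averaged 1.02 ± 0.04 at 8 weeks and 0.77 ± 0.27 at 4 weeks. BIN4 and AT3G25597 were at 0.29 from it. AHP2 was nearest to RbcX1, a Rubisco assembly chaperone (0.13, with means of -0.59 ± 0.14 at 8 weeks and -0.26 ± 0.05 at 4 weeks), ahead of AT2G45460 (0.15) and AT1G27480 (0.18).

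The other genes of these pathways could be followed only in small part, since the annotation names few probes. Of 182 listed genes of topoisomerases, DNA damage signalling and repair, meiotic recombination, DNA methylation and silencing, and replication and division, 14 were set aside because their symbol did not match RefSeq, and 13 had a probe named by the annotation. None of the 13 passed limma's test at either age, where 0% of all probes passed. By limma 0 of the 13 had an unadjusted p under 0.05, beside 3.5% of all probes at 8 weeks and 0.992% at 4 weeks. With 13 genes and shares this small, nothing is read from these counts. At 8 weeks 4 were above 0 and 9 below, with a median of -0.03, beside -0.03 for all probes. At 4 weeks 6 were above 0 and 7 below, with a median of -0.01, beside 0.00 for all probes. The ratios of the 13 thus lay on either side of 0, and none was over 1.5-fold higher at either age. By mean 1, ZYP1A, was over 1.5-fold lower at 8 weeks, without one sign in its replicates. The share of all probes by mean alone was not counted.

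Among topoisomerases 3 were measured beside BIN4. TOPII, which relaxes and decatenates DNA, had the highest mean at 8 weeks (0.12 ± 0.13), against 0.16 ± 0.17 at 4 weeks. SPO11-2, a topoisomerase VI-like subunit that makes meiotic breaks, averaged -0.09 ± 0.12 at 8 weeks and 0.42 ± 0.79 at 4 weeks. TOP3A averaged -0.05 and -0.08. These ratios were within their spread or close to 0, whereas every BIN4 replicate was above 0.5. BIN4 was chosen on its ratio and the others were not, so nothing is read from the contrast.

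In damage signalling and repair 4 genes named by the annotation were measured beside GMI1. Their means lay between -0.03 for RAD51B (± 0.35) and 0.09 for the repair helicase RAD5A (± 0.08) at 8 weeks. At 4 weeks the translesion polymerase POLH was the highest (0.11 ± 0.26). The study's lists name a further 2, chosen by the study on these samples. BARD1, the partner of BRCA1, had ratios of 0.81, 0.63 and 0.96 in replicates 1 to 3 at 8 weeks, and averaged 0.80 ± 0.17 there and 0.29 ± 0.25 at 4 weeks. TSO2, a ribonucleotide reductase subunit that makes building blocks of DNA, had -0.76, -0.55 and -0.54, and averaged -0.62 ± 0.12 at 8 weeks and -0.06 ± 0.24 at 4 weeks. BARD1 was thus above 0 and TSO2 below 0 in all replicates at 8 weeks.

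The meiotic genes were the list with the lowest median at 8 weeks among those with over 1 gene measured, and AHP2 shared its sign there. All 4 genes named by the annotation were below 0 at 8 weeks (median -0.35, beside -0.03 for all probes). At 4 weeks 3 of 4 were below 0 (median -0.05, beside -0.003 for all probes). ZYP1A, a protein of the synaptonemal complex, averaged -0.72 ± 0.93, with replicate 1 at -1.75 and the others at 0.04 and -0.45. SWI1 averaged -0.52 ± 0.54 at 8 weeks and was the lowest at 4 weeks (-0.44 ± 0.42). Neither had 1 sign in all replicates at 8 weeks. DFO was the highest at 8 weeks (-0.09 ± 0.13). MND1, the partner of AHP2, had -0.05, -0.30 and -0.21 at 8 weeks, with a mean of -0.18 ± 0.13, and 0.11 ± 0.13 at 4 weeks. Its 3 replicates at 8 weeks had the sign of AHP2 and were all nearer to 0 than those of AHP2. HEI10, which acts in crossover formation and is named through the study's lists, had 2 probes, with means of -1.30 ± 0.60 and -0.91 ± 0.85 at 8 weeks and -0.70 ± 0.91 and -0.65 ± 0.01 at 4 weeks. None of these genes passed limma's test, which called 0% of all probes. The median at 8 weeks rested on 4 genes and was -0.19 without replicate 2. AHP2 was chosen on its ratio, so nothing is read from the sign it shares with the list or with MND1.

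Of the 43 listed genes of DNA methylation and silencing, DME, a glycosylase that removes methylcytosine, was the 1 with a named probe, with 0.12 ± 0.25 at 8 weeks and -0.02 ± 0.18 at 4 weeks. No relative of FDM4 had a named probe. MCM7, a subunit of the replicative helicase, stood alone for replication and division, with 0.04 ± 0.20 at 8 weeks and -0.09 ± 0.28 at 4 weeks. None of 12 floral organ markers had a named probe, so floral tissue in the samples could not be checked. Of 15 stem markers 3 were named, all through the study's lists, with means between 0.78 for FLA11 and 0.87 for FLA12 at 8 weeks and between -0.03 and 0.08 at 4 weeks. At 8 weeks these stem markers were highest in replicate 3, at 1.59 to 2.09, the replicate in which BIN4 and GMI1 were lowest and FDM4 was highest, and their part in these ratios was not tested.

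Further genes were taken by their RefSeq name. The 5 genes of repair and telomeres had a median of -0.07 at 8 weeks and -0.07 at 4 weeks. Their lowest mean at 8 weeks, -1.40 ± 2.42 for EME1B, rested on the Cy5 array of replicate 1, at -8.15, where the Cy3 array gave -0.14. EME1B was the highest of these genes at 4 weeks (0.37 ± 0.34). TERT, the catalytic subunit of telomerase, had -0.08, -1.65 and -0.11 in replicates 1 to 3 at 8 weeks, below 0 in all 3, with a mean of -0.61 ± 0.90 that rested on replicate 2, and it had the lowest mean at 4 weeks (-0.29 ± 0.59). DRT100 was the highest at 8 weeks (0.02 ± 0.42). By mean, EME1B and TERT were over 1.5-fold lower at 8 weeks, each through 1 array or replicate. Only TERT also had one sign in all 3 replicates, a measure met by 1.72% of all probes. None of the 5 passed limma's test, and nothing is read from these counts. The 17 probes of chromatin remodelling and histone genes had a median of -0.02 at 8 weeks, 8 of them above 0, and of 0.06 at 4 weeks, 12 of them above 0. CHR40, of the CLSY family that acts in RNA-directed DNA methylation, was lowest at 8 weeks, at -1.74 ± 3.17, again through the Cy5 array of replicate 1 (-10.7, against -0.05 in Cy3). At 4 weeks it was the highest of its list, at 0.69 ± 0.93, with replicates at -0.004, 0.32 and 1.74, and its replicates thus spread widely at both ages. Its relatives chr31 and CHR42 averaged 0.10 ± 0.34 and -0.09 ± 0.22 at 8 weeks and 0.13 ± 0.29 and 0.16 ± 0.33 at 4 weeks. The lowest of the list at 4 weeks was CHR34, another chromatin remodeller, at -0.68 ± 0.58. CHR17, a chromatin remodeller, was the highest at 8 weeks (0.25 ± 0.02), with an adjusted p of 0.99 by limma.

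**Figure D4:**
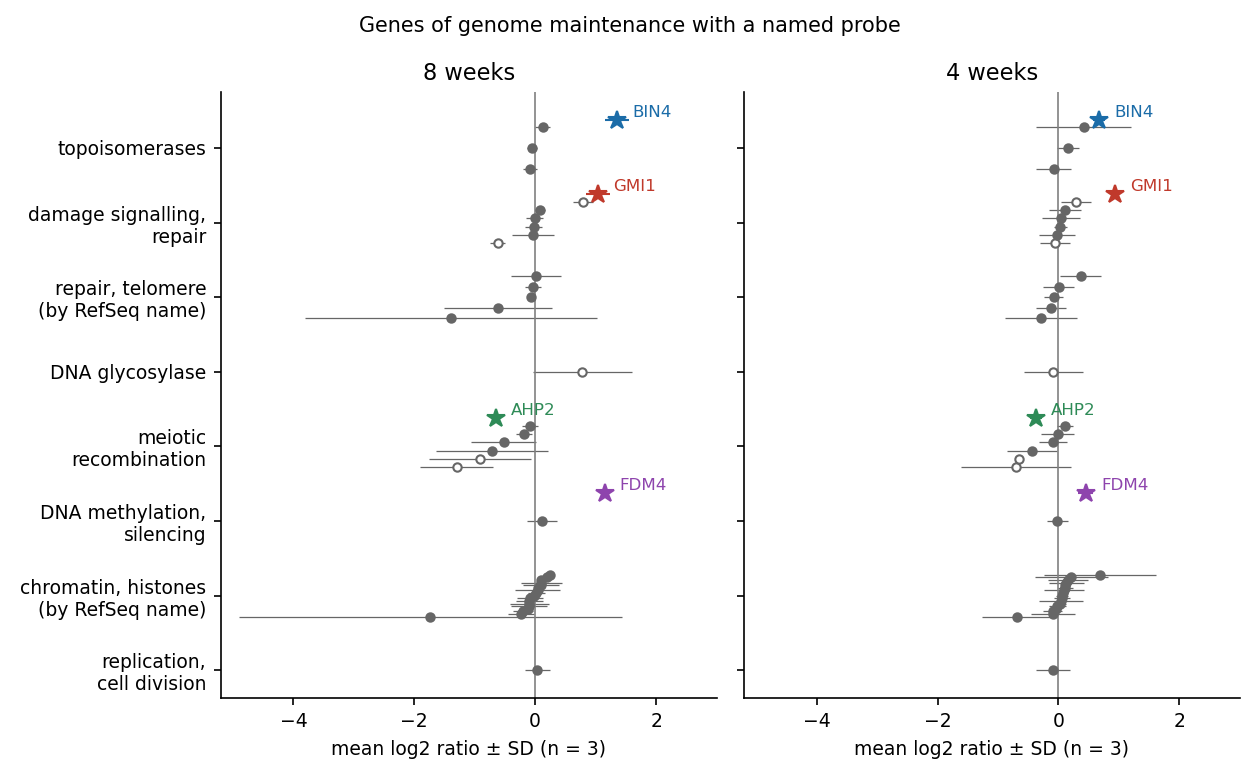
Mean log2 ratio ± SD (x axis, n = 3) at 8 weeks and at 4 weeks of genes of genome maintenance by list (y axis), with filled circles for probes named by the annotation, open circles for those named through the study's lists and stars for the 4 genes. BIN4, GMI1 and FDM4, which were chosen on their ratios, lie to the right of the measured genes of their lists at 8 weeks, at 1.35, 1.04 and 1.15. AHP2 lies within the range of the meiotic genes.

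The 4 genes lie in pairs on their chromosomes, GMI1 and BIN4 on chromosome 5 with 41 protein-coding genes between them, and AHP2 and FDM4 on chromosome 1 with 50 between them. The nearest 3 genes with a named probe on each side of each gene were compared, which gave 23 neighbours named by the annotation. At 8 weeks 10 of these were above 0, with a median of -0.02 and a range from -0.26 to 0.17. At 4 weeks 13 were above 0, with a median of 0.02 and a range from -0.32 to 0.27. All these neighbours had means nearer to 0 than the gene they flank. The 4 genes were chosen for ratios away from 0 and the neighbours were not, so nothing is read from this. The gene next to AHP2, AT1G13340, averaged 0.04 ± 0.70 at 8 weeks, and the gene next to FDM4, AT1G13780, averaged 0.04 ± 0.12. RAV1, 7 genes from AHP2 and named through the study's lists, averaged 0.61 ± 1.06 at 8 weeks and 0.34 ± 0.26 at 4 weeks. Between AHP2 and FDM4 lies AT1G13635, of the DNA methyladenine glycosylase family, which was chosen after its values were seen. Its ratios at 8 weeks were 0.59, 0.07 and 1.68, a mean of 0.78 ± 0.82, and it averaged -0.08 ± 0.48 at 4 weeks. Its replicates spread far more widely than those of the 4 genes.

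**Figure D5:**
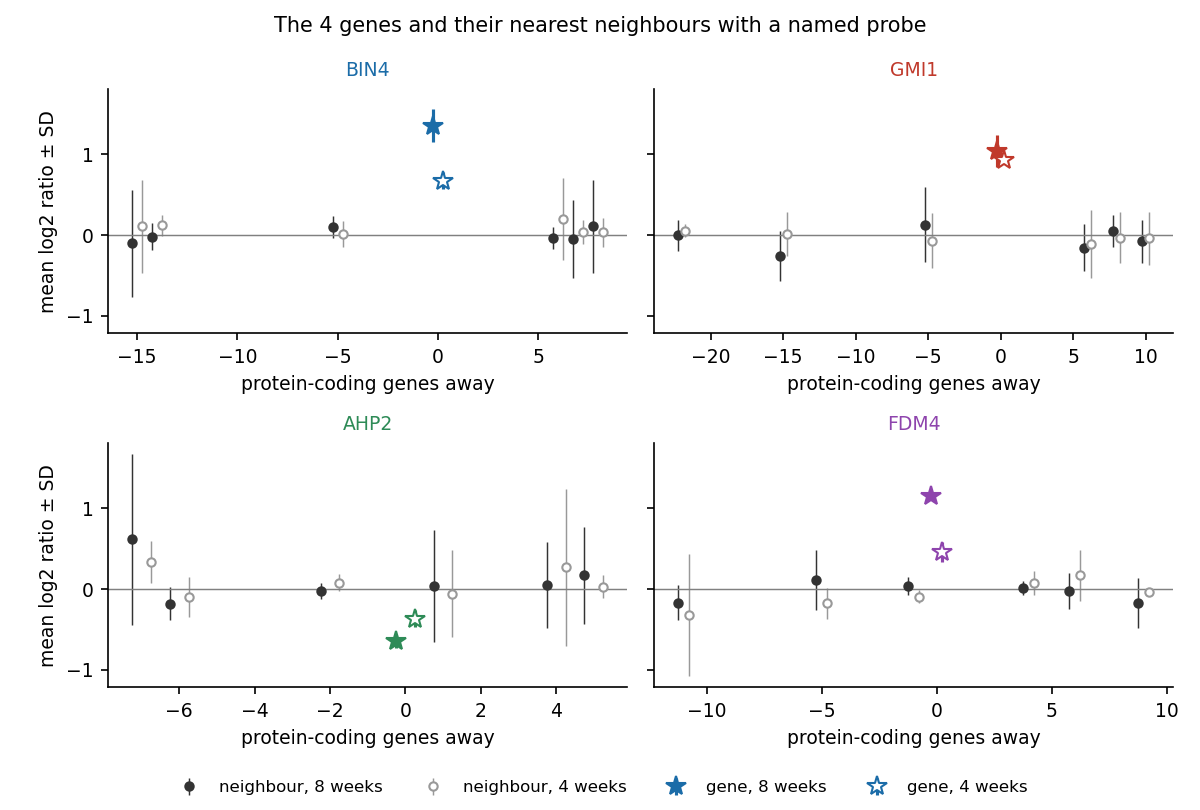
Mean log2 ratio ± SD (y axis, n = 3) of each of the 4 genes (stars) and of its nearest neighbours with a named probe (circles), by the number of protein-coding genes away (x axis), filled at 8 weeks and open at 4 weeks. The 23 neighbours named by the annotation lie between -0.26 and 0.17 at 8 weeks, and RAV1 is the circle farthest to the left beside AHP2.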

How the data were processed

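The deposited values are log2 ratios per probe and array. Slides were read by the authors on a GenePix scanner, and features from GenePix Pro were processed with limma in R; the methods give the normalization only by citing earlier work, and the background correction is not given in the sources used here. The sign was taken from SND2, above 0 in both dye orientations. Ratios were used as deposited, with no filter. After averaging the dye-swapped pair, limma 3.58.1 (R 4.3.3; lmFit, eBayes, Benjamini-Hochberg over 37685 probes) was fitted at each age and tested on simulated data. The precision is limited by 3 replicates. The annotation named 7440 probes and the study's lists a further 188, leaving 30057 unnamed. The members and lists were chosen with earlier results of these data known. Genes named are the 4 members, SND2, the highest and lowest of each list at each age, all list members from the study's lists, the 3 most alike and the 3 nearest neighbours on each side, most of which are given as a range. A few further genes were named after their values were seen: the probes as high as FDM4 on every array, chr31, CHR42 and AT1G13635. The lists taken by RefSeq name were added after the files were seen. EME1B and CHR40 values by array were looked up because of their spread. Tables were made with Python 3.11.15, pandas 2.3.3 and numpy 2.4.6, and figures with matplotlib 3.10.9.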

Additional observations from a re-analysis of the deposited data

How the results depend on the processing

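Across centring, scaling, either array of the dye-swapped pair, 4 arrays as equal values and each replicate left out, the ratios of the 4 genes at each age and their differences between the ages kept their direction. List medians near 0 did not. At 8 weeks that of damage signalling and repair (-0.01) lay at 0.02 with arrays centred, also once scaled, 0.03 with replicate 1 by its Cy3 array and 0.09 without replicate 3, and that of chromatin genes (-0.02) at 0.01 with arrays centred, also once scaled, and without replicate 2 (0.0079). At 4 weeks that of topoisomerases (0.16) was -0.02 without replicate 3, that of damage signalling and repair (0.04) -0.02 without replicate 1 and -0.03 without replicate 2, and that of meiotic genes (-0.05) 0.07 without replicate 1. BIN4 ranged from 1.26 to 1.47 at 8 weeks and from 0.62 to 0.72 at 4 weeks, GMI1 from 0.98 to 1.15 and from 0.91 to 0.95, AHP2 from -0.69 to -0.61 and from -0.41 to -0.31, and FDM4 from 1.13 to 1.18 and from 0.39 to 0.51. FDM4 at 8 weeks moved beyond its small SD only with arrays centred (1.18, against 1.15). The difference of AHP2 between the ages ranged from -0.38 to -0.20 with 1 replicate left out, and was -0.38 without replicate 2; that of GMI1 ranged from 0.03 to 0.22, that of BIN4 from 0.55 to 0.80 and that of FDM4 from 0.64 to 0.77. limma called 2 probes at 8 weeks with both ages in one fit, and 0 to 3 with 1 replicate left out (3 without replicate 1, 1 without replicate 2). At 4 weeks it called 2 with 4 arrays as equal values and 2 with both ages in one fit. None of the 4 genes was among these. The meiotic median at 8 weeks was -0.19 without replicate 2 and -0.62 with the probes from the study's lists, and -0.27 with them at 4 weeks. With the replicate number as a block, the differences between the ages stayed at 0.68 for BIN4, 0.11 for GMI1, -0.28 for AHP2 and 0.69 for FDM4, and 0 probes were called. Deviations from the age means, over probes, correlated at -0.02, 0.12 and 0.16 for replicates of one number. For pairs of unlike number they lay between -0.21 and 0.08. Replicates 2 and 3 also kept their dye orientation across the ages, so number and dye cannot be told apart there. Without intensities, no limit from signal over background can be set.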
